A study of Homo sapiens with 6 samples.

Results

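The genes examined were 10 members of the canonical WNT pathway: WNT3, FZD7, SFRP2, DKK1, CTNNB1, AXIN2, TCF7, LEF1, TCF7L1 and SP5. For each, the ZIC2-bound regions whose nearest edge lay within 100 kb of the gene's start were taken, with starts on hg19 given to the nearest 1 kb, so that a distance carries an error of up to 0.5 kb. This gave 28 regions out of 16077 in the series. SFRP2 was chosen from the values themselves, since its region is among the 10 widest of those called in both genotypes, and its width is given as a description. The other genes were chosen by pathway, with earlier results of these data known.

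The regions came from CUT&Tag, which uses an antibody-tethered transposase to cut and tag DNA beside a bound protein. The cells were H1 (WA01), an established human embryonic stem cell line, untreated as far as the labels say. Anti-ZIC2 libraries came from wild-type cells (WT, 2 libraries) and from cells that carry a Cas9-made deletion of ZNF263, described as a homogeneous knockout (KO, 2 libraries). Rabbit IgG was used on 1 further library of each genotype, and those libraries were not analysed here. The sources used here do not state whether the KO cells are 1 clone or whether the replicates are separate cultures. Lists of positions hold no expression values, so neither the cell type nor the loss of ZNF263 was checked against marker levels.

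Each genotype is represented by 1 deposited list of positions, with 12966 regions in WT and 7231 in KO. Heights and read counts are not part of the lists, so depth is unknown, values have no replicate error, and no test between genotypes was made. A region is called shared where it is in both lists, WT-only or KO-only otherwise. A WT-only region was not called in KO, which is not a measured loss of binding. All 4120 shared regions have the same edges in both lists, so the width of a shared region is 1 value for both genotypes. The comparison asks how ZIC2 binding at these genes differed in cells without ZNF263.

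In canonical WNT signalling, a WNT ligand binds a Frizzled receptor with an LRP co-receptor, the destruction complex that holds AXIN is inhibited, and beta-catenin accumulates and enters the nucleus. There it binds the HMG-box factors TCF7, LEF1, TCF7L1 and TCF7L2 and activates targets such as AXIN2 and SP5. In human pluripotent cells this pathway is known for driving the exit towards primitive streak and mesendoderm, and TCF7L1 for acting mostly as a repressor. ZIC2, a zinc-finger factor, is made in pluripotent cells and in the early neural lineage, and ZIC proteins have been described as partners of TCF factors. ZNF263, another zinc-finger protein, is known to bind GGA-rich DNA.

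Of the 10 genes, 9 had at least 1 ZIC2 region within 100 kb of the start and DKK1 had none. Of 15146 positions placed every 200 kb along the chromosomes, a grid that does not follow gene starts, 46.5% had one as close. All 9 had a region in the WT list and 6 in the KO list, which is the shorter list (7231 regions against 12966). The share of grid positions was not computed for each list, so 9 against 6 is no measure of lost binding. TCF7, LEF1 and CTNNB1 had WT-only regions and no other class, with 2, 3 and 1 regions. Of all regions 55.0% were WT-only, and counts this small do not set these genes apart. SFRP2, AXIN2, TCF7L1, SP5, FZD7 and WNT3 each had exactly 1 shared region. KO-only regions lay near 4 genes, TCF7L1, SP5, FZD7 and WNT3.

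By class, 6 of the 28 regions were shared (21.4%, exact Clopper-Pearson 95% interval 8.30 to 41.0), against 25.6% of all regions. WT-only regions numbered 15 (53.6%, 33.9 to 72.5, against 55.0%), and KO-only regions 7 (25.0%, 10.7 to 44.9, against 19.4%). Of the 21 WT regions near these genes, 15 were not called in KO (71.4%, 47.8 to 88.7), against 68.2% of the whole WT list. Of the 13 KO regions, 7 were not called in WT (53.8%, 25.1 to 80.8), against 43.0% of the whole KO list. Without SFRP2, whose shared region was part of the choice, 5 of 26 regions were shared (19.2%, 6.55 to 39.4). Of the WT regions, 73.7% were then absent from the KO list (48.8 to 90.9), and of the KO regions 58.3% from the WT list (27.7 to 84.8). With and without SFRP2, each of these intervals includes the share over all regions, so a difference in make-up between these loci and the lists was not detectable at this number of regions. The intervals cover counting error only and treat neighbouring regions as independent.

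**Figure D1:**
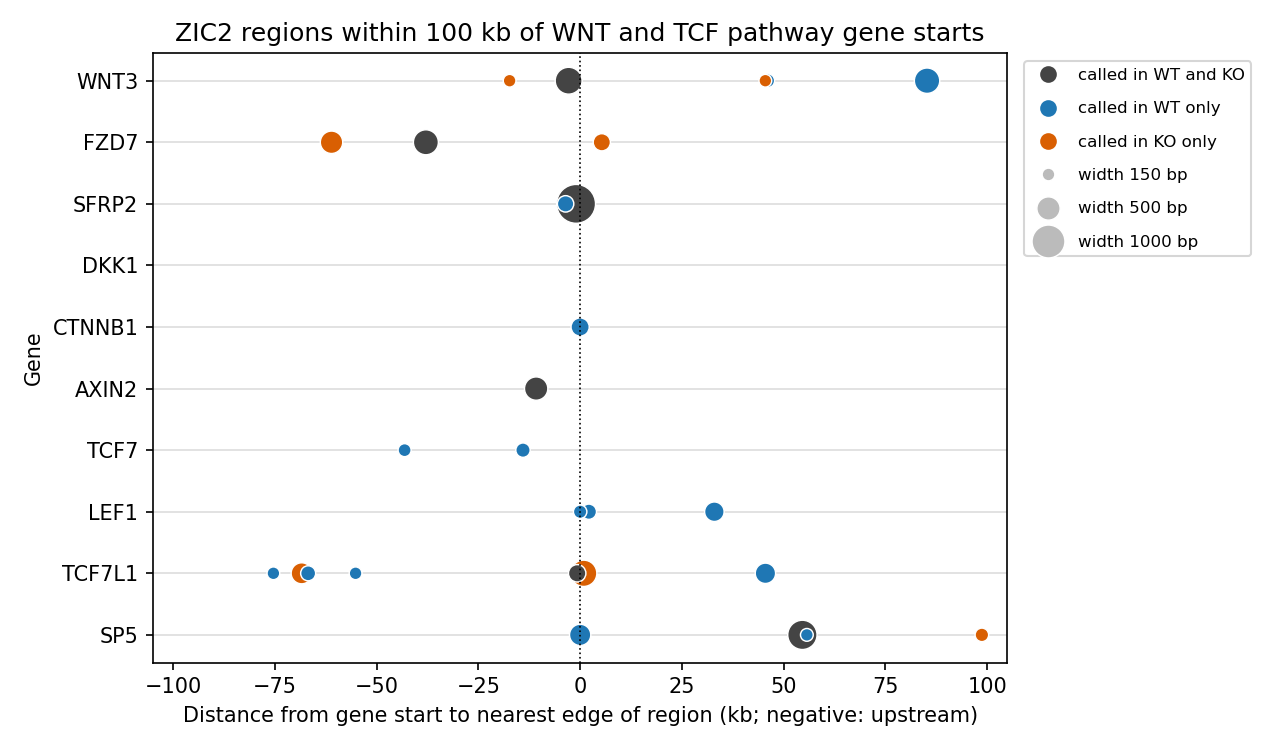
Each point is 1 ZIC2 region, placed by the distance in kb from the gene's start to the region's nearest edge (negative values lie upstream in the gene's direction), with 1 row per gene, colour for the class and point area for the width in bp. Points lie within 2 kb of the starts of SFRP2, CTNNB1, LEF1, TCF7L1 and SP5, and the row of DKK1 is empty. The rows of CTNNB1, TCF7 and LEF1 hold WT-only regions alone (1, 2 and 3 regions).

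A ZIC2 region lay within 2 kb of the start for 5 of the 10 genes: LEF1, CTNNB1, SP5, TCF7L1 and SFRP2. SFRP2 was chosen for a region at this place, and without it the count was 4 of 9. Over the grid of 15146 positions, 2.15% had a region as close. The share over all gene starts was not computed here. The nearest region was WT-only at LEF1, CTNNB1 and SP5, and shared at TCF7L1 and SFRP2. In the KO list, a region within 2 kb was thus found for TCF7L1 and SFRP2.

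The nearest region overlapped the start at LEF1 and CTNNB1, and lay 0.007 kb from it at SP5, 0.727 kb at TCF7L1 and 0.993 kb at SFRP2. The first 3 of these distances do not differ beyond the rounding of the starts, nor do those of TCF7L1 and SFRP2. Next came WNT3 with 2.83 kb, FZD7 with 5.33 kb, AXIN2 with 10.8 kb, TCF7 with 14.0 kb and DKK1 with 109 kb. The median over the 10 genes was 1.91 kb (2.83 kb without SFRP2), against 116 kb for the grid. The grid does not follow gene starts, and the median over all gene starts was not computed.

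The DNA before 4 of these starts is shown because a ZIC2 region lay within 2 kb of them. The printed bases need not lie inside that region. At SFRP2 the region began 0.993 kb upstream, beyond the 250 bases printed even with the rounding of 0.5 kb. Each line gives the 250 bases before the start in the direction of the gene, from RefSeq on GRCh38.p14, another build than the lists, so the region's own edges cannot be placed on it. Capitals mark matches, on either strand, to CAGCAGG or CTGCTG (cores of ZIC sites), CTTTGA (the core of TCF and LEF sites, with its longer forms CTTTGAA and CTTTGAT) and GGAGGA (the repeat of ZNF263 sites). CAGCAGG contains the reverse complement of CTGCTG.
SFRP2, chr4:153789084-153789333, minus strand: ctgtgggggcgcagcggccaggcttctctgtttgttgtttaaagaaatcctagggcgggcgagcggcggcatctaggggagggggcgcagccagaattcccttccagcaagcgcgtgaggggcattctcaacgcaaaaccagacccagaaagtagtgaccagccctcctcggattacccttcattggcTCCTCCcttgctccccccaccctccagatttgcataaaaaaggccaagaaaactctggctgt
CTNNB1, chr3:41199255-41199504, plus strand: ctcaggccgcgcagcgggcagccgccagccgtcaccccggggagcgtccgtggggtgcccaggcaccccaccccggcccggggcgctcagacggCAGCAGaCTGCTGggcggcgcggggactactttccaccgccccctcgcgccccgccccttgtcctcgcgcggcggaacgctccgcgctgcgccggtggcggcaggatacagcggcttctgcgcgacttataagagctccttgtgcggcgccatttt
TCF7L1, chr2:85133142-85133391, plus strand: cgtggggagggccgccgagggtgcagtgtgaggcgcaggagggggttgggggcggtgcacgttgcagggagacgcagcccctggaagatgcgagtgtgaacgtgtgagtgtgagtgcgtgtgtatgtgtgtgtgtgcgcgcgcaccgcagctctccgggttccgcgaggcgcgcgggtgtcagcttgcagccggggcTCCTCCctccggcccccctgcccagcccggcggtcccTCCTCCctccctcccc
SP5, chr2:170715087-170715336, plus strand: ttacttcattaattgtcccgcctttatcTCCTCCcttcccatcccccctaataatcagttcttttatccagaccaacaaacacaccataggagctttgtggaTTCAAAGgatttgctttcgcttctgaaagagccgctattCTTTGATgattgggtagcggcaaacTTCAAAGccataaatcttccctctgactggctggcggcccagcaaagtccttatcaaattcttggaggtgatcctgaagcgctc

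SP5 held 3 matches to CTTTGA, counted at their 5′ ends on the gene's strand. These were CTTTGAT at 109 bases before the start, and the reverse complement of CTTTGAA at 148 and at 84 bases. CTTTGA was in 11.2% of 35116 promoters of the same length, CTTTGAA in 3.8% and CTTTGAT in 2.26%. SFRP2, CTNNB1 and TCF7L1 held none of these. GGAGGA was found in reverse once in SFRP2 (62 bases before the start), at 53 and 16 bases in TCF7L1, and at 222 bases in SP5, and 31.8% of promoters hold it. CTNNB1 held CTGCTG in both directions, at 149 and 156 bases, a motif of 24.6% of promoters. CAGCAGG, in 8.48% of promoters, was not among the letters of these 4 windows. The share of G and C was 57.6% in SFRP2, 74.4% in CTNNB1, 72.0% in TCF7L1 and 45.6% in SP5, against a median of 58.0%. A match is a string of letters and not a measured site.

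WNT3 encodes a WNT ligand of the primitive streak. Its start lies at 44.896 Mb on chromosome 17, between NSF and WNT9B in the gene order of the GRCh38 annotation. It had 5 regions, of which 3 were in the WT list and 3 in the KO list. The shared region (chr17:44898827-44899493, 667 bp) lay 2.83 kb upstream of the start and was the nearest. The widest WT-only region of all 10 loci (chr17:44810153-44810748, 596 bp) lay 85.3 kb downstream, wider than 94.8% of WT-only regions. A WT-only region of 174 bp (chr17:44849716-44849889) and a KO-only region of 150 bp (chr17:44850339-44850488), 46.1 and 45.5 kb downstream, stood 449 bp apart. The fifth, KO-only and 150 bp wide (chr17:44913331-44913480), lay 17.3 kb upstream, towards WNT9B. The narrowest width in either list is 150 bp. The region nearest to the WNT3 start was thus in both lists, while none of its more distant regions was in both. This rests on the overlap rule, under which the WT-only and KO-only regions 449 bp apart count as different.

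FZD7 encodes a Frizzled receptor that is abundant in human pluripotent cells. Its start lies at 202.899 Mb on chromosome 2, between CDK15 and KIAA2012. It was the only one of the 10 genes with more KO than WT regions, 3 against 1. The shared region (chr2:202860518-202861094, 577 bp) lay 37.9 kb upstream. One KO-only region (chr2:202837441-202837905, 465 bp) lay 61.1 kb upstream and was wider than 87.9% of KO-only regions. The other (chr2:202904327-202904600, 274 bp) lay 5.33 kb downstream and was the nearest to the start. No WT-only region lay within 100 kb of FZD7, whereas 4 of the 4 regions between 100 and 200 kb from its start were WT-only. Over all regions 55.0% were WT-only, as were 16 of the 21 regions between 100 and 200 kb of the 10 starts. The FZD7 counts are small, and this contrast was not tested.

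SFRP2 and DKK1 encode secreted antagonists, SFRP2 by binding WNT ligands and DKK1 by blocking the LRP co-receptor. The SFRP2 start lies at 154.710 Mb on chromosome 4, between RNF175 and DCHS2. Its shared region (chr4:154710993-154712387) was 1395 bp wide, rank 7 of the 4120 shared regions, and began 0.993 kb upstream. Of all regions wider than 1000 bp, 76.0% were shared. A WT-only region of 248 bp (chr4:154713574-154713821) followed 1186 bp further upstream, and 0 regions lay between 100 and 200 kb from the start. Both ZIC2 calls near SFRP2 lay upstream of the start. That the wide one was called in both genotypes follows from how SFRP2 was chosen, and the narrow one was called in WT alone.

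DKK1 had 0 regions within 100 kb of its start at 54.074 Mb on chromosome 10, between CSTF2T and MBL2. The nearest was WT-only (chr10:53964952-53965189, 238 bp), 109 kb upstream. The nearest shared region (chr10:50897998-50898557, 560 bp) was 3.18 Mb away. With 2 regions within 500 kb, DKK1 had the sparsest surroundings of the 10 genes, while the grid had a median of 3 (quartiles 1 and 7). Without read counts, binding below the calling threshold at DKK1 was not detectable.

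CTNNB1 encodes beta-catenin, the coactivator that TCF factors recruit. Its start lies at 41.241 Mb on chromosome 3, between ZNF621 and ULK4. The single region within 100 kb (chr3:41240745-41241050, 306 bp) overlapped the start and was WT-only. Among all regions of over 300 to 400 bp, 45.3% were WT-only and 37.4% shared. The nearest shared region (chr3:41404435-41404990, 556 bp) lay 163 kb away. No region within 100 kb of CTNNB1 was therefore called in KO.

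AXIN2 encodes a scaffold of the destruction complex and a feedback inhibitor that the pathway itself induces. Its start lies at 63.558 Mb on chromosome 17, between RGS9 and CEP112. The single region (chr17:63568806-63569308, 503 bp) lay 10.8 kb upstream and was shared. Its width was above that of 56.2% of shared regions. The next region stood 278 kb from it, so this call was isolated and the same in both genotypes.

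The 3 genes of TCF and LEF factors held 12 regions, of which 9 were WT-only (75%), against 55.0% of all regions. The regions of LEF1 and TCF7 were all WT-only, whereas at TCF7L1 4 of 7 were. Pooling these 3 genes was not planned, regions of 1 locus are not independent, and the difference from all regions was not tested. LEF1 and TCF7 act mainly as activators with beta-catenin, and TCF7L1 mainly as a repressor. LEF1, with its start at 109.090 Mb on chromosome 4 between HADH and RPL34, had 3 regions, all WT-only. They overlapped the start (chr4:109089871-109090037, 167 bp), or lay 2.14 kb (chr4:109087642-109087857, 216 bp) and 33.0 kb downstream (chr4:109056664-109057015, 352 bp). The nearest shared region was 452 kb from the LEF1 start. The widest of the 3 was the most distant, and the one at the start was narrower than the WT-only median of 181 bp.

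TCF7, with its start at 133.450 Mb on chromosome 5 between VDAC1 and SKP1, had 2 regions, both WT-only and both upstream. They were 191 bp wide at 14.0 kb (chr5:133435768-133435958) and 157 bp at 43.1 kb (chr5:133406709-133406865). Both were in the class of over 150 to 200 bp, where 68.2% of all regions were WT-only and 10.0% shared. The nearest shared region was 258 kb from the TCF7 start.

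TCF7L1 had the most regions of the 10 genes, 7 within 100 kb of its start at 85.361 Mb on chromosome 2, between KCMF1 and TGOLN2. Of these 4 were WT-only, 2 KO-only and 1 shared. On the grid, 1.60% of positions had at least 7. That share is for single positions of a grid that does not follow gene starts, while TCF7L1 was the highest of 10 genes. It is no measure of how unusual 7 regions are for a gene. A shared region of 280 bp (chr2:85359994-85360273) lay 0.727 kb upstream of the start, and a KO-only region of 640 bp (chr2:85361873-85362512) 0.873 kb downstream, 1599 bp apart. The KO-only region was the widest of its class at these genes, rank 160 of 3111 KO-only regions. Of all regions of over 600 to 800 bp, 11.1% were KO-only and 62.5% shared. The start of TCF7L1 was thus marked by 1 call common to both genotypes and 1 wide call made in KO alone.

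A second group of TCF7L1 regions lay upstream, on the side of KCMF1. It comprised WT-only regions of 150 bp at 75.4 kb (chr2:85285476-85285625) and at 55.2 kb (chr2:85305667-85305816), and one of 208 bp at 66.8 kb (chr2:85293957-85294164). A KO-only region of 409 bp at 68.4 kb (chr2:85292163-85292571) stood 1385 bp from the latter. The remaining WT-only region (chr2:85406532-85406914, 383 bp) lay 45.5 kb downstream. Surroundings were dense as well, with 7 more regions between 100 and 200 kb and 25 within 500 kb of the start. TCF7L1 alone gave 7 of the 28 regions, and without it the count was 21.

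SP5 encodes a zinc-finger factor that beta-catenin and TCF factors induce directly. Its start lies at 171.572 Mb on chromosome 2, between MYO3B and ERICH2, and it had 4 regions. The WT-only region at the start (chr2:171572007-171572424, 418 bp) was wider than 86.1% of WT-only regions. Among all regions of over 400 to 600 bp, 38.6% were WT-only and 48.3% shared. A shared region of 793 bp (chr2:171626617-171627409), wider than 86.7% of its class, lay 54.6 kb downstream. A WT-only region of 150 bp (chr2:171627716-171627865) followed after 306 bp, and a KO-only region of 170 bp (chr2:171670725-171670894) lay at 98.7 kb. The SP5 start thus had a call in WT alone, while the widest call of the locus was distal and common to both genotypes.

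The last SP5 region was also the member closest to the limit of 100 kb. Just outside were a WT-only region of 412 bp at 104 kb from TCF7L1 and the DKK1 region at 109 kb.

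**Figure D2:**
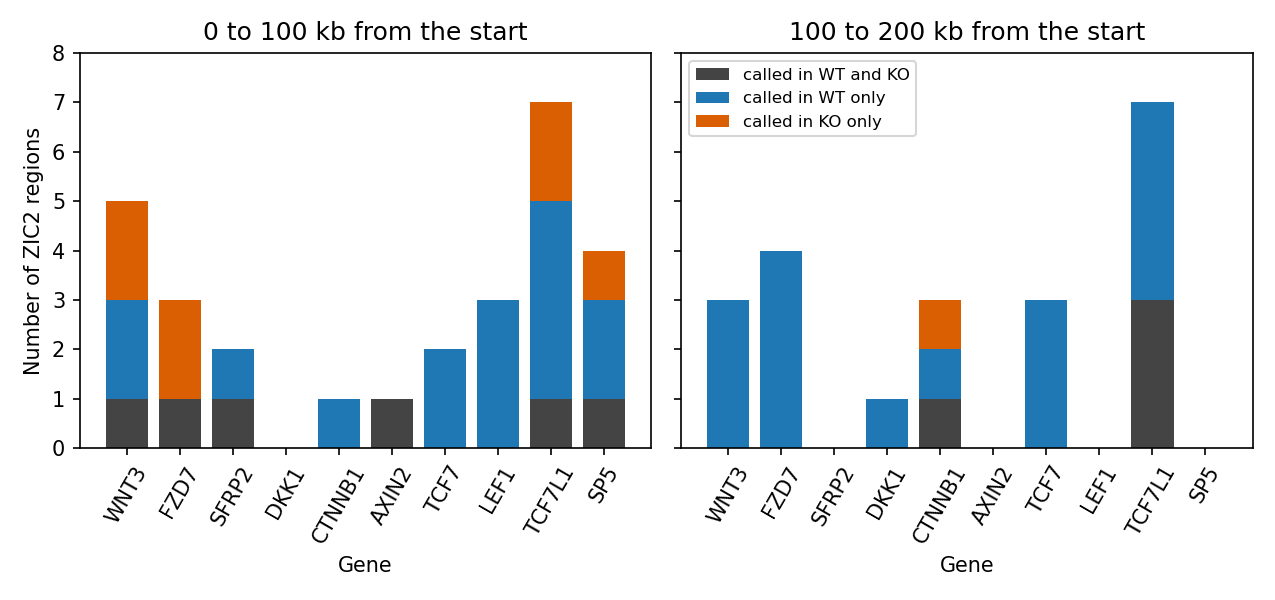
Bars give the number of ZIC2 regions per gene within 100 kb of the start (left) and between 100 and 200 kb from it (right), stacked by class. TCF7L1 is highest in both panels with 7, SFRP2, AXIN2, LEF1 and SP5 have regions in the left panel alone, and the left panel holds 7 KO-only regions against 1 in the right panel.

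The 10 loci held 28 regions within 100 kb of the starts and 21 between 100 and 200 kb. SFRP2, AXIN2, LEF1, SP5 and WNT3 had more regions in the inner than in the outer interval, TCF7, CTNNB1, DKK1 and FZD7 fewer, and TCF7L1 had 7 in each. The outer interval held 4 shared, 16 WT-only and 1 KO-only region, against 6, 15 and 7 in the inner one. The difference between the intervals was not tested. It was not the same at each gene, as the 4 outer regions of FZD7 and the 3 of TCF7 show.

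**Figure D3:**
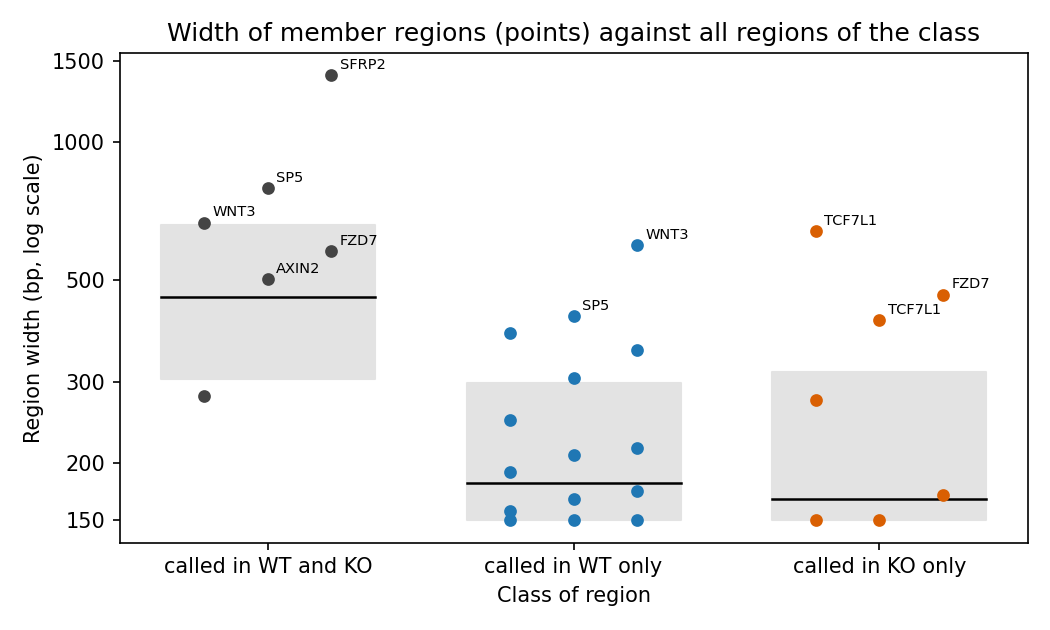
Points are the widths in bp (log scale) of the 28 regions by class, with names above 400 bp. Grey bands span the quartiles and black lines the medians of all regions of the class, and all but 1 of the shared points, that of TCF7L1 at 280 bp, lie above the shared median of 460 bp.

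At these loci, as over the whole lists, shared regions were wider in the median than regions of 1 list. Shared regions have the same edges in both lists, and how edges were set is not stated in the sources used here. Whether the difference in width reflects binding or the way regions were made cannot be told apart. Shared members had a median width of 622 bp (577 bp without SFRP2), against 460 bp for all shared regions. The WT-only members had a median of 208 bp, against 181 bp, and the KO-only members 274 bp, against 167 bp. Over all 28 the median was 277 bp, against 235 bp. The minimum of 150 bp was held by 5 of 28 members (17.9%) and by 30.3% of all regions.

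Above 400 bp there were 10 members. Of these 5 were shared (SFRP2, SP5, WNT3, FZD7 and AXIN2), 2 WT-only (WNT3 and SP5) and 3 KO-only (2 of TCF7L1 and 1 of FZD7). Without SFRP2, chosen for its wide shared region, 4 of 9 were shared. Over all 4285 regions above 400 bp, 56.7% were shared, 31.5% WT-only and 11.8% KO-only. The widest region of a locus was shared at SFRP2, AXIN2, SP5, FZD7 and WNT3, WT-only at LEF1, TCF7 and CTNNB1, and KO-only at TCF7L1. In summed width, the KO regions near the 10 genes came to 6473 bp and the WT regions to 8081 bp, or 80.1% of the WT sum, against 66.7% over the whole lists. SFRP2, chosen for its wide shared region, adds its 1395 bp to both sums. The ratio without SFRP2 was not computed, and the difference from the whole lists was not tested.

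Some regions of these loci stood close to another one. Of the 28, 12 had a neighbour within 5 kb (42.9%), against 25.3% of all regions, a difference that was not tested. They formed 6 pairs, at WNT3, SP5, LEF1 and SFRP2 and 2 at TCF7L1, with gaps of 306 to 2013 bp. In 5 of the 6 pairs the members were of different classes, with the LEF1 pair, both WT-only, as the exception. Over all 2229 neighbouring pairs within 5 kb, 60.9% were of different classes. At SFRP2 and SP5 a shared region had a WT-only neighbour, at the TCF7L1 start a shared one had a KO-only neighbour, and at WNT3 and upstream of TCF7L1 a WT-only region stood beside a KO-only one. This closeness was examined after the positions had been seen, and pairs of 1 locus are not independent.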

How the data were processed

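Positions of ZIC2 regions were deposited as 1 list per genotype with 3 columns (chromosome, start, end) and no score. Per the submitters' processing notes, Bowtie2, Picard and hg19 were used. The peak caller and its threshold were not given in the sources used here, nor were the use of IgG and the pooling of the 2 replicates. Lists were joined with Python 3.11.15, pandas 2.3.3, numpy 2.4.6 and scipy 1.17.1, and regions overlapping by at least 1 bp were counted once as shared. Figures were drawn with matplotlib 3.10.9. Distances run from the start to the nearest edge. Coordinates are hg19, counted from 1. Intervals for shares are exact Clopper-Pearson 95% intervals. The 95% interval for the median width was taken from the ordered widths with binomial limits. The routines were tested on simulated data. Members and lists were chosen with earlier results of these data known, and the close pairs and the outer interval were examined after the positions were seen. The pooling of the 3 TCF and LEF genes was not planned. All 10 members are named, with each region. Gene order came from RefSeq on GRCh38.p14, used for names alone. Whether a region lies in an exon or intron, and a wider list of WNT pathway genes, were not analysed here, since no hg19 annotation was used. Promoters matched 8 of 10 genes (not AXIN2 and FZD7). LEF1 was not printed, because its entry does not lie at the gene's outermost start. Sequences run in the gene's direction, which was checked on 2822 overlapping pairs of entries on opposite strands.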

Additional observations from a re-analysis of the deposited data

How the results depend on the processing

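The 28 regions became 49 with a 200 kb window and 16 with regions of at least the joint median width (235 bp), where their median width was 441.5 bp, as both settings do by construction. With 20 kb in place of 2 kb, chosen after seeing the data, 9 genes had a region near the start. Under the other settings run these values stayed within 1.5 times or within their intervals. So did both shares of regions called in 1 list (50.0 to 75.6% for WT and 40.0 to 58.3% for KO), the genes with a shared region (5 to 7), the close pairs and the outer interval. For the shares this is a weak check, since their intervals are wide (47.8 to 88.7% for WT and 25.1 to 80.8% for KO). With the WT list cut to its widest regions, as many as in the KO list, the WT share was 50.0%, against 71.4% as reported. The KO share was then 53.8%. Shares over the whole lists were not computed at these settings. With each gene left out in turn, the count of regions was 21 (without TCF7L1) to 28. Requiring 50% reciprocal overlap tests nothing, since all shared edges are identical. No paired analysis was possible because 1 list stands for the 2 replicates of each genotype. Leaving out a replicate was likewise impossible. Depth is unknown, and a region that was not called may still be bound.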

Other observations

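The same motifs were searched in the promoter entries that are not printed above, those of DKK1, WNT3, LEF1 and TCF7. DKK1, which had 0 ZIC2 regions within 100 kb, held CTTTGA at 95 and, in reverse, at 149 bases before its start, the first as CTTTGAA. WNT3 held 0 matches. The LEF1 entry and the 2 TCF7 entries do not lie at the outermost start of their genes. LEF1 held GGAGGA at 184 and 113 bases before the start of its entry. TCF7 held GGAGGA at 233 and 44 bases, CTGCTG at 173 and, in reverse, at 125 and 12 bases, and CAGCAGG at 125 bases, over both entries. CAGCAGG was in none of the other 7 genes matched. These are matches of letters on GRCh38.p14 and were not set against binding.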
